A study of Mus musculus with 33 samples.

Results

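The genes described here encode 36 components of T cell receptor (TCR) signalling, measured by RNA sequencing in regulatory T cells (Treg) sorted from the mouse colon. They are the rows of the deposited count table that carry the symbols of a chosen list of 36 genes, and all 36 were found among its 53465 genes and passed the filter on low counts. The set holds 25 positive components, 10 negative regulators and Cd69, a surface protein induced by TCR signalling. The study sorted Treg by 2 receptors for cytokines that injured epithelium releases, TSLPR (gene Crlf2), which senses TSLP, and ST2 (gene Il1rl1), which senses IL-33.

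Treg were sorted as CD45+ TCR+ CD4+ Foxp3+ cells from Foxp3-yfp B6 mice, whose age the protocol gives as between 7 and 12 weeks. Cells of each mouse were split into 4 gates by TSLPR and ST2, with 200 cells per library. The cancer groups come from 4 mice (mice 5 to 8) with colitis-associated cancer, and the naive groups from 4 mice without it (mice 1 to 4). For the model, azoxymethane (AOM, 10 mg/kg, a carcinogen) is injected once and dextran sulfate sodium (DSS, which injures the colon epithelium) is given in drinking water for 7 days in each of 3 cycles, and mice are taken 2 weeks after the last DSS. No AOM-only or DSS-only group was analysed here, so tumours, recent colitis and the chemicals cannot be told apart. The 4 gates in 2 kinds of mice gave 8 groups of 4 Treg libraries, from cells with both receptors (TSLPR+ST2+), with 1 of them (TSLPR+ST2-, or TSLPR-ST2+) or with neither (TSLPR-ST2-). One further library held Foxp3-negative CD44low naive T cells of a naive mouse.

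Library totals ran from 4038718 to 8839946 counts over the 32 Treg libraries, with 14632 to 16845 genes detected. Foxp3, the Treg lineage factor, had 61.1 to 216 CPM (counts scaled to library size) in Treg libraries and 0.285 CPM in the Foxp3-negative library. Il1rl1 had 94.5 to 299 CPM in ST2+ libraries and 0 to 11.1 CPM in ST2- libraries. Crlf2 had 25.3 to 55.8 CPM in TSLPR+ libraries and 8.55 to 30.0 CPM in TSLPR- libraries. The overlap comes from cancer mouse 5, with 25.3 CPM in its TSLPR+ST2+ library and 30.0 CPM in its TSLPR-ST2+ library, the reverse of what the gates define. Whether these 2 libraries are as labelled could not be settled from the data. Naive mouse 3 stood apart for several members, and the cancer TSLPR+ST2+ library of mouse 7 held 4445 CPM of epithelial markers, against at most 209 CPM as the median of any group. Counts of called members without these libraries are given with the other alternatives at the end.

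In T cells the TCR chains are paired with the CD3 proteins and CD247, whose tails are phosphorylated by the kinase LCK when the receptor binds its ligand. ZAP70 then binds these tails and phosphorylates the adaptors LAT and SLP-76 (gene Lcp2), on which VAV1 and phospholipase C gamma 1 assemble. Downstream, RASGRP1 feeds the RAS pathway, protein kinase C theta (gene Prkcq) feeds the BCL10 and MALT1 complex and NF-kB, and calcium activates NFAT. Phosphatases, ubiquitin ligases, diacylglycerol kinases and the receptors CD5 and CD6 restrain the signal, and Treg need TCR signalling for their suppressive function.

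The start regions of 5 members are shown because the results below turn on these genes. The 3 CD3 genes lie together on chromosome 9 and were higher in TSLPR+ Treg, Prkcq was lower there, and Lat was higher in cancer mice. The calls of Cd3e and Lat were lost in some fits that left out a mouse, as given below. Each window runs from 250 bases before to 50 bases after a gene's start, with the letters and the build (GRCm38.p6) from RefSeq. Capitals mark E-boxes (CANNTG, the same on both strands), motifs that E proteins of lymphocytes can bind.
Cd3g, chr9:44980382-44980681, minus strand: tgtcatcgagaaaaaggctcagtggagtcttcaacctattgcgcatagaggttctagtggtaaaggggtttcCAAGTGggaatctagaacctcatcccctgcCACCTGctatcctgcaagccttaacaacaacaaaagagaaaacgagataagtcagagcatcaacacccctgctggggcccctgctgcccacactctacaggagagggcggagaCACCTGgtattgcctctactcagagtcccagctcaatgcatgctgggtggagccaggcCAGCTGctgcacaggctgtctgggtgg
Cd3d, chr9:44981536-44981835, plus strand: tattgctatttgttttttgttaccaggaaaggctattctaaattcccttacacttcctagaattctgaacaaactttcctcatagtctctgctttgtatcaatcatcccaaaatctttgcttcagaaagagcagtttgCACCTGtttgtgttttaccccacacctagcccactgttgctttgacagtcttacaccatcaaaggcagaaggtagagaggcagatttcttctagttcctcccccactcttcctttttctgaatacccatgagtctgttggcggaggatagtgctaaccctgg
Cd3e, chr9:45009562-45009861, minus strand: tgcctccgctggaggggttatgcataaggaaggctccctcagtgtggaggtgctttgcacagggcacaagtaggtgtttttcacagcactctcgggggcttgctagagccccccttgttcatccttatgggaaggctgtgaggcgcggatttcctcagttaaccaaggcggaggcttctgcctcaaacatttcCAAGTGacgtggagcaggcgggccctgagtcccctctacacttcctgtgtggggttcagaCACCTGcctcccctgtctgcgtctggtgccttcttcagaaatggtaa
Prkcq, chr2:11172132-11172431, plus strand: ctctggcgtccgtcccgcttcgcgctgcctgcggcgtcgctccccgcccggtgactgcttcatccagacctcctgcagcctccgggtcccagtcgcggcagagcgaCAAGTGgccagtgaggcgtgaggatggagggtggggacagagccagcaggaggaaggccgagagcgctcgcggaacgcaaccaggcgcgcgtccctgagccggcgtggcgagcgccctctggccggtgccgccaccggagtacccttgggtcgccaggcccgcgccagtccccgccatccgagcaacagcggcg
Lat, chr7:126369519-126369818, minus strand: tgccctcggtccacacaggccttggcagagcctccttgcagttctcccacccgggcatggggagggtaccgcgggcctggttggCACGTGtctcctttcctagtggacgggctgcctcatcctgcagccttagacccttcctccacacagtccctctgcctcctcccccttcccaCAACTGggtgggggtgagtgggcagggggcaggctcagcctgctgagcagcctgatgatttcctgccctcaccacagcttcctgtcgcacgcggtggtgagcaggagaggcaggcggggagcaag
The Cd3g and Cd3d genes are transcribed away from each other, with starts 1355 bases apart. The Cd3d window had a GC content of 42.3% and 1 CpG, against 73% and 37 CpG in the Prkcq window. Cd3g had 54%, Cd3e 56.7% and Lat 65.7%, and the median over all windows was 52.7%. The reference held 44 windows for 30 of the members. An E-box was present in 38 of these 44 windows (86.4%) and in 72.3% of all 32851 windows. Core letters of the NFAT motif (TGGAAA, either strand) were in 22.7% of member windows and 21.4% of all windows. For RUNX (TGTGGT) the shares were 11.4% and 16.8%, and for ETS (CCGGAA) 6.82% and 14.9%. A match describes the letters of a window and is not a binding site.

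The members ranged widely in level. Per kb of exon, Lck was highest at a mean of 579 CPM per kb over the 32 Treg libraries, which placed it at percentile 99.7 of the genes tested. The receptor chains followed with 511 CPM per kb for Cd3d and 330 for Cd3g, then Lat with 249 and Dgka, a diacylglycerol kinase that removes the messenger of RASGRP1, with 242. At the low end were Nfatc2 at 7.14 CPM per kb, Themis, an adaptor of thymocyte selection, at 6.07, and the RAS exchange factor Sos1 at 2.98. Neighbours in this order often overlapped in their range over libraries, as for Lat (159 to 321) and Dgka (119 to 373). The exon length used is the union of all annotated exons of a gene, so the order also depends on the annotation. Before this scaling Ptprc was highest, at a mean of 2321 CPM over 18.3 kb, against 1697 CPM over 2.93 kb for Lck.

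Lck was also the steadiest member, with a pooled standard deviation (SD) of 0.073 log2 units within groups. The SD within groups was largest for Sos1 and Cd4, at 0.39 log2 units each. Sos1 had 74 to 395 counts per library, while Cd4 had at least 1045. All members together took 1.32% to 1.94% of the counts of a Treg library. Cd247 shares 56.4% of its exon bases with Pou2f1 on the opposite strand. No source used here states the strand of counting, so reads from these shared bases may come from either gene. No other member shared more than 6.96% with another gene.

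**Figure D1:**
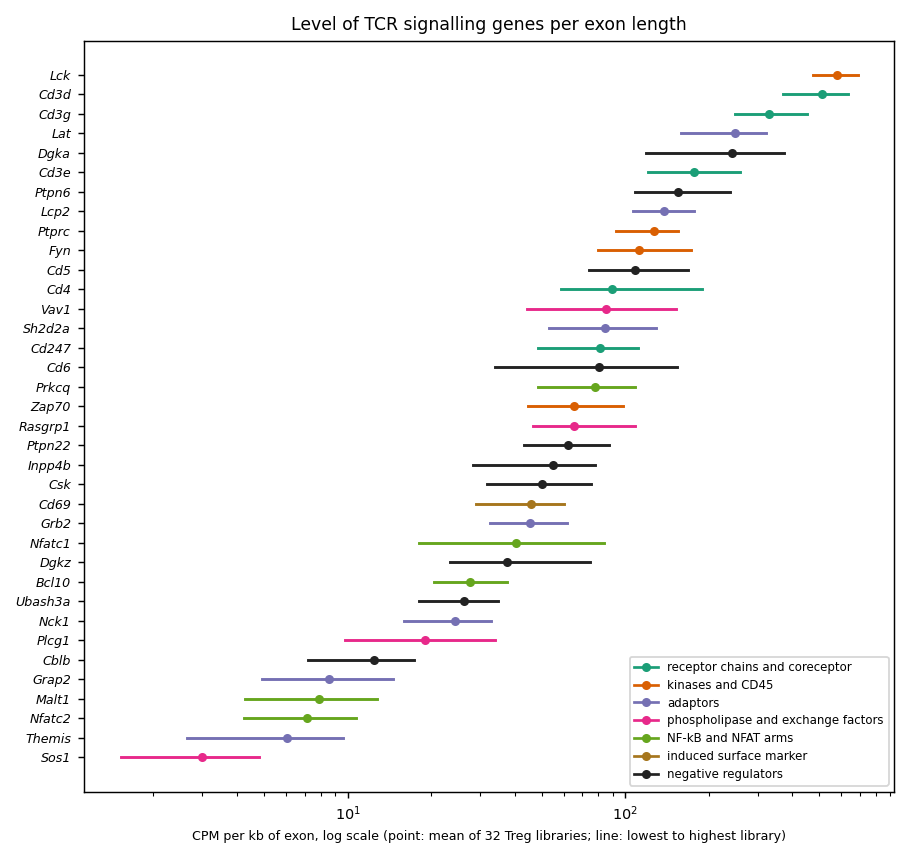
Mean level of each member over 32 Treg libraries, as CPM per kb of exon on a log axis, with a line from the lowest to the highest library and colours for the role of the gene. Lck, Cd3d and Cd3g lead at 579, 511 and 330 CPM per kb, and Sos1 is lowest at 2.98.

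The comparison of TSLPR+ with TSLPR- Treg asks what marks cells that carry the TSLP receptor. It averaged over ST2 gates and over cancer and naive mice, with 16 libraries on each side, and 15 of 36 members passed the test. Of these, 7 were higher and 8 lower in TSLPR+ Treg. Of all 14861 genes tested, 13.4% passed, 7.97% as higher and 5.46% as lower. Among the receptor chains 3 of 5 rose, and of the phospholipase and exchange factors 3 of 4 fell, while the NF-kB and NFAT arms were split. The test was edgeR's quasi-likelihood test with Benjamini-Hochberg adjustment over all genes (limit 0.05), which gives every adjusted p below.

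The CD3 chains were modestly higher in TSLPR+ Treg. Cd3g (chromosome 9, 44969572 to 44980431) had 834 to 1470 CPM (median 1171) in TSLPR+ libraries and 814 to 1186 CPM (median 985) in TSLPR- libraries. These ranges overlapped, but the gene was higher in 8 of 8 mice (log2 fold change 0.23 ± 0.05 SE, edgeR adjusted p = 0.00107). Cd3d (chromosome 9, 44981786 to 44987339) had medians of 1004 CPM in TSLPR+ and 878 CPM in TSLPR- libraries (1.15-fold higher, adjusted p = 0.0117). Cd3e (chromosome 9, 44998740 to 45009627) had medians of 776 CPM in TSLPR+ and 678 CPM in TSLPR- libraries (1.15-fold higher, adjusted p = 0.0292). Its call was lost without mouse 1, 5 or 8 (adjusted p up to 0.123), with the mitochondrial share as a covariate and without the ST2+ libraries of mouse 5. Cd247, the signalling zeta chain, had medians of 426 CPM in TSLPR+ and 466 CPM in TSLPR- libraries and did not pass (adjusted p = 0.125). Cd4, the coreceptor that brings LCK to the receptor, averaged 360.2 CPM in TSLPR+ and 361 CPM in TSLPR- libraries and did not pass either (adjusted p = 0.961).

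Of the kinases, Zap70 (chromosome 1, 36761798 to 36782818) rose 1.23-fold in TSLPR+ Treg (adjusted p = 0.000451, higher in 7 of 8 mice). Its values differed by status. Naive mice 1 to 4 had 235, 279.7, 233 and 238 CPM in TSLPR+ST2+ libraries and 269, 293, 256 and 272 CPM in TSLPR+ST2- libraries. In TSLPR-ST2+ libraries of the same mice it had 156, 194, 174 and 157 CPM, and in TSLPR-ST2- libraries 133, 195, 200.5 and 180.3 CPM, so in naive mice every TSLPR+ library lay above every TSLPR- library. Cancer mice 5 to 8 had 178, 146, 187 and 161 CPM in TSLPR+ST2+ libraries and 173, 203, 183 and 178 CPM in TSLPR+ST2- libraries. Their TSLPR-ST2+ libraries had 153, 185, 176 and 169.9 CPM and their TSLPR-ST2- libraries 166, 158, 186 and 188 CPM, so in cancer mice the gates overlapped. The test of this difference is given with the interactions. Lck, Fyn, a second kinase of the SRC family, and Ptprc, which encodes the phosphatase CD45 that keeps LCK active, did not pass, with log2 fold changes between -0.06 and -0.01.

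Among the adaptors, Themis (1.35-fold lower, adjusted p = 0.0182) and Grap2, which encodes the GADS link between LAT and SLP-76 (1.26-fold lower, adjusted p = 0.0373), fell in TSLPR+ Treg. Themis had 30.9 to 89.0 CPM in TSLPR+ and 42.9 to 112 CPM in TSLPR- libraries. The call of Themis was lost without mouse 4, 7 or 8 (adjusted p up to 0.0880), and that of Grap2 in 6 of 8 fits without a mouse and with mouse as a random effect in limma-voom. The other 5 adaptors did not pass. Vav1, an exchange factor for RAC, fell 1.28-fold, with medians of 259 CPM in TSLPR+ and 345 CPM in TSLPR- libraries (adjusted p = 0.0103, lower in 7 of 8 mice), a call lost without mouse 7 (adjusted p = 0.0550) and with the mitochondrial share as a covariate (adjusted p = 0.0708). Plcg1, the phospholipase that makes diacylglycerol and the calcium signal, fell 1.29-fold (adjusted p = 0.0396), and Rasgrp1, which diacylglycerol recruits to activate RAS, fell 1.22-fold (adjusted p = 0.0369). Plcg1 lost the call in 6 and Rasgrp1 in 7 of 8 fits without a mouse, and both lost it with the mitochondrial share as a covariate. Sos1 did not pass, at means of 31.5 CPM in TSLPR+ and 31.7 CPM in TSLPR- libraries.

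The largest shift among the members was in the NF-kB arm. Malt1 (chromosome 18, 65430938 to 65479067), a scaffold and protease downstream of protein kinase C theta, was higher in TSLPR+ libraries, at 131 to 230 CPM (median 177), against 77.2 to 166 CPM (median 108) in TSLPR- libraries. The log2 fold change was 0.71 ± 0.10 SE (1.63-fold higher, edgeR adjusted p = 2.17e-05, higher in 8 of 8 mice). Prkcq (chromosome 2, 11172108 to 11301222), upstream of it, went the other way. It had 342 to 515 CPM (median 442) in TSLPR+ libraries and 441 to 770 CPM (median 660) in TSLPR- libraries (log2 fold change -0.55 ± 0.06 SE, adjusted p = 5.03e-07, lower in 8 of 8 mice). Only the TSLPR-ST2+ library of mouse 5, at 441 CPM, reached into the TSLPR+ range. Bcl10, the partner of MALT1, averaged 130.4 CPM in TSLPR+ and 121 CPM in TSLPR- libraries and did not pass (adjusted p = 0.488).

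Nfatc1 (chromosome 18, 80606205 to 80713071), an NFAT factor that is itself induced by TCR signalling, rose 1.33-fold in TSLPR+ Treg (medians 333 CPM in TSLPR+ and 239 CPM in TSLPR- libraries, adjusted p = 0.00918, 8 of 8 mice). Nfatc2, a constitutive family member, did not pass, with medians of 69.1 CPM in TSLPR+ and 84.5 CPM in TSLPR- libraries. Cd69 did not pass either (medians 272 CPM in TSLPR+ and 298 CPM in TSLPR- libraries, adjusted p = 0.506).

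Of the 10 negative regulators 1 rose and 2 fell in TSLPR+ Treg. Dgka (chromosome 10, 128720134 to 128744855) had the smallest p of all members. It had 567 to 1156 CPM (median 965) in TSLPR+ libraries and 1132 to 1777 CPM (median 1371) in TSLPR- libraries, with a log2 fold change of -0.56 ± 0.05 SE (1.47-fold lower, edgeR adjusted p = 7.97e-09, lower in 8 of 8 mice). By gate the mean level was 869 ± 173 CPM in TSLPR+ST2+, 1002 ± 123 in TSLPR+ST2-, 1262 ± 113 in TSLPR-ST2+ and 1484 ± 153 CPM in TSLPR-ST2- libraries (SD, n = 8 each). Inpp4b, a lipid phosphatase of the PI3K pathway, fell 1.25-fold (adjusted p = 0.000494). Ptpn22, a phosphatase acting on LCK and ZAP70, rose 1.31-fold, with 382 to 593 CPM (median 470) in TSLPR+ libraries and 292 to 486 CPM (median 365) in TSLPR- libraries (adjusted p = 0.000254, 8 of 8 mice). Cd5, Cd6, Ptpn6, Csk, Ubash3a, Cblb and Dgkz did not pass. The median log2 fold change was -0.03 over the positive components, -0.19 over the negative regulators and 0.01 over all genes.

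**Figure D2:**
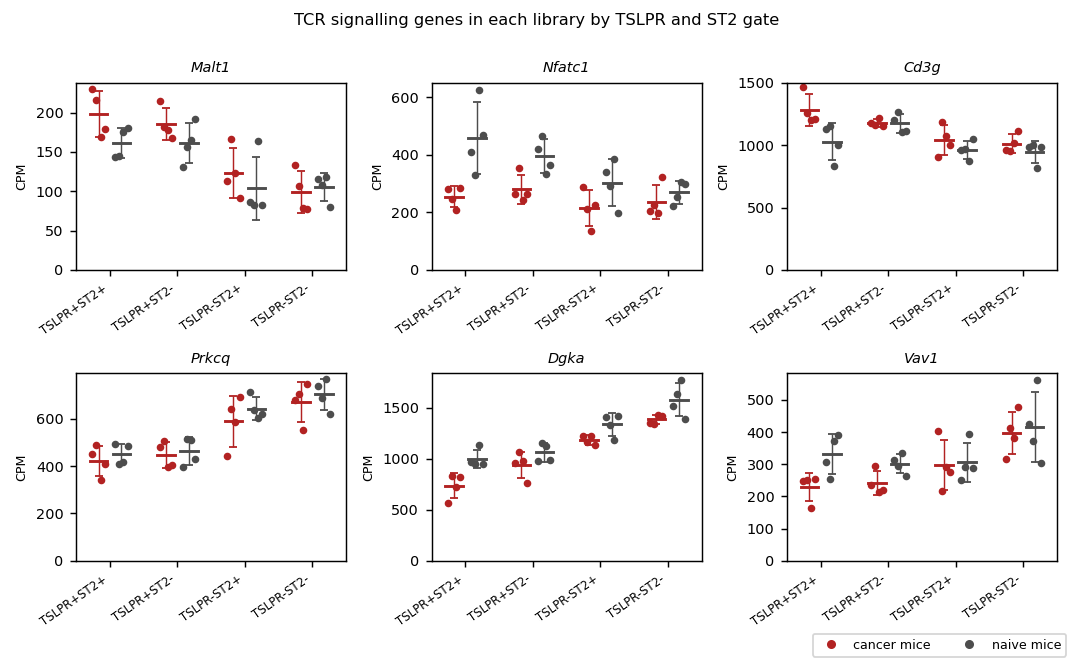
CPM of 6 members in each of 32 Treg libraries (points), by gate and status, with the mean (bar) and SD (error bar) of each group of 4. Malt1, Nfatc1 and Cd3g were higher and Prkcq, Dgka and Vav1 lower in the TSLPR+ gates, which stand on the left of each panel.

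Other genes of the pathway, from a wider list, mostly fell where they changed. Of 55 other positive genes, 2 rose and 15 fell in TSLPR+ Treg. Those with small p included Trat1, an adaptor tied to the TCR complex (1.62-fold lower), Txk, a kinase of the TEC family (1.71-fold lower), and Fyb, an adaptor for integrin activation (1.21-fold lower). Txk had 68.3 to 229 CPM in TSLPR+ and 123 to 328 CPM in TSLPR- libraries (adjusted p = 1.87e-05). The 2 that rose, picked out here after their values were seen, were Orai1, a calcium channel subunit (1.28-fold), and Nfkb1, which encodes an NF-kB subunit (1.22-fold). Of 30 other negative genes tested, 2 rose and 5 fell, led by Rasa3, a GTPase-activating protein of RAS and RAP (1.92-fold lower, adjusted p = 3.71e-06). Of the constant genes of the TCR chains, Trac rose 1.18-fold (adjusted p = 0.000411) and Trbc2 fell 1.09-fold (adjusted p = 0.0489), while Trbc1 did not pass.

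Markers of other cells moved with the gates. The summed level of 8 B and plasma cell markers was 1726 to 3421 CPM in TSLPR+ and 850 to 1627 CPM in TSLPR- libraries. That of 10 macrophage and dendritic cell markers was 141 to 2182 CPM in TSLPR+ and 2.51 to 2544 CPM in TSLPR- libraries, with Cd14, Itgax and Fcgr1 at a median of 0 counts. That of 9 epithelial markers was 48.1 to 4445 CPM in TSLPR+ and 12.1 to 91.5 CPM in TSLPR- libraries, with Cdh1, Krt18, Krt20, Vil1 and Muc2 at a median of 0 counts. Members such as Malt1, Ptpn22, Ptpn6, Grb2 and Ptprc are also used by B cells and myeloid cells, and the part of these cells in the results was not tested. In bulk libraries, fewer cells of a type and less RNA per cell cannot be told apart. Of the 15 calls, 9 were kept under every alternative run (Cd3d, Cd3g, Zap70, Malt1, Prkcq, Nfatc1, Ptpn22, Dgka and Inpp4b).

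ST2+ and ST2- Treg differed less. Of 36 members 7 passed, 1 higher and 6 lower in ST2+ Treg, and of all genes tested 6.04% passed, 3.7% as higher and 2.33% as lower. Lat (chromosome 7, 126363824 to 126369570) had 439 to 888 CPM (median 596) in ST2+ libraries and 643 to 887 CPM (median 718) in ST2- libraries (log2 fold change -0.30 ± 0.05 SE, edgeR adjusted p = 9.89e-05, lower in 8 of 8 mice). The ranges overlapped. Lck fell by 0.17 on the log2 scale, with medians of 1595 CPM in ST2+ and 1802 CPM in ST2- libraries (adjusted p = 0.0004, 8 of 8 mice). Cd3e fell 1.15-fold (adjusted p = 0.0410), a call kept in only 1 of 8 fits that left out a mouse. Grb2, the adaptor that carries SOS1 to LAT, was the member that rose. It had 119 to 180 CPM (median 140) in ST2+ libraries and 94.6 to 140 CPM (median 121) in ST2- libraries (1.22-fold higher, adjusted p = 0.00129, 8 of 8 mice).

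The negative regulators that passed all fell in ST2+ Treg. Inpp4b (chromosome 8, 81342556 to 82127914) had 371 to 849 CPM (median 603) in ST2+ libraries and 645 to 1018 CPM (median 823) in ST2- libraries, a log2 fold change of -0.42 ± 0.06 SE (1.34-fold lower, edgeR adjusted p = 5.39e-05, 8 of 8 mice). Ptpn6, which encodes the phosphatase SHP-1, fell 1.19-fold (adjusted p = 0.0144) and Dgka 1.17-fold (adjusted p = 0.00726). Their calls were lost without mouse 2 (adjusted p = 0.0931 as the highest over single mice for Ptpn6 and 0.0537 for Dgka), and that of Ptpn6 also without mouse 1. None of the NF-kB and NFAT members and none of the phospholipase and exchange factors passed. Of the wider list, 1 positive gene rose and 4 fell, among them Txk (1.38-fold lower), and 1 negative gene rose and 1 fell. Trbc1 and Trbc2 both fell (1.21-fold and 1.14-fold). Macrophage and dendritic cell markers summed to 316 to 2544 CPM in ST2+ and 2.51 to 1203 CPM in ST2- libraries, and their part in these results was not tested.

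**Figure D3:**
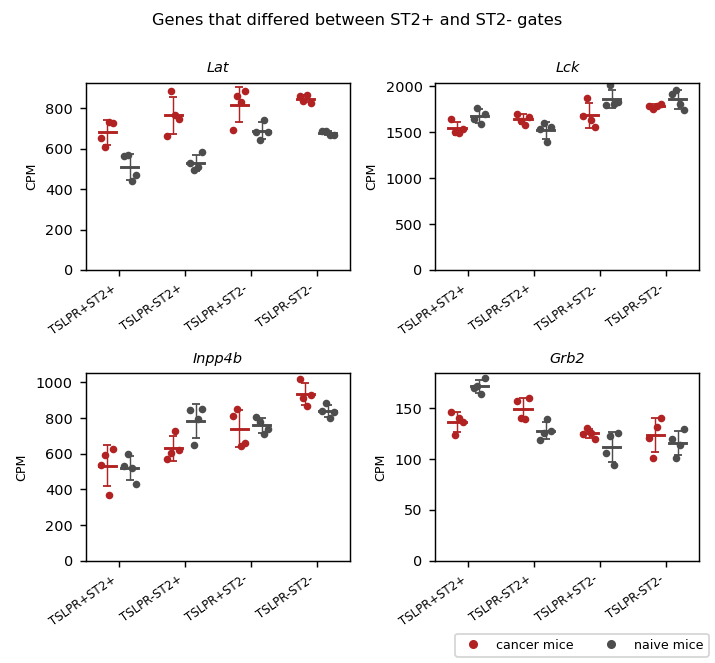
CPM of Lat, Lck, Inpp4b and Grb2 in each library (points) with the mean (bar) and SD (error bar) of 4, with the ST2+ gates on the left of each panel. Grb2 was higher and the other 3 genes lower in ST2+ Treg, and the mean of Lat was higher in cancer mice than in naive mice in each gate.

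Treg that carried both receptors were set against Treg with neither. Of 36 members 17 passed, 5 higher and 12 lower in TSLPR+ST2+ Treg, and of all genes tested 15.2% passed, 9.27% as higher and 5.98% as lower. The largest differences were in Malt1 (1.75-fold higher), Dgka (1.72-fold lower), Inpp4b (1.68-fold lower), Grap2 (1.59-fold lower) and Prkcq (1.57-fold lower). Malt1 averaged 179.8 ± 30.5 CPM in TSLPR+ST2+ and 102 ± 21.2 CPM in TSLPR-ST2- libraries (SD, n = 8 each). The groups did not overlap, since its lowest TSLPR+ST2+ library had 144 CPM and its highest TSLPR-ST2- library 133 CPM. Dgka did not overlap either, at no more than 1134 CPM in TSLPR+ST2+ and no less than 1345 CPM in TSLPR-ST2- libraries. Of the negative regulators 5 of 10 fell (Ptpn6, Ubash3a, Dgka, Dgkz and Inpp4b) and Ptpn22 rose. Ubash3a encodes a suppressor of TCR signalling, and Dgkz a second diacylglycerol kinase. The median log2 fold change was -0.32 over the negative regulators, 0.03 over the positive components and -0.002 over all genes.

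Cd247 fell 1.37-fold in TSLPR+ST2+ against TSLPR-ST2- Treg (edgeR adjusted p = 0.00831) while Cd3g rose 1.17-fold (adjusted p = 0.0180), so the counts of these 2 genes moved in opposite directions. Cd247 shares 56.4% of its exon bases with Pou2f1, and the part of Pou2f1 reads in its counts was not tested. The call of Cd247 was lost without mouse 3 (adjusted p = 0.0550) and that of Cd3g without mouse 1 or 5 (adjusted p up to 0.0624). Of 55 other positive genes 2 rose and 16 fell, with Txk 2.36-fold lower, Trat1 1.71-fold and Pik3r1, a regulatory subunit of PI3 kinase, 1.46-fold lower. Of 30 other negative genes 3 rose and 3 fell. B and plasma cell markers summed to 2199 to 3421 CPM in TSLPR+ST2+ and 850 to 1272 CPM in TSLPR-ST2- libraries. Macrophage and dendritic cell markers summed to 386 to 2182 CPM in TSLPR+ST2+ and 2.51 to 156 CPM in TSLPR-ST2- libraries, with no overlap in either list. Their part in the result was not tested. The call of Nfatc1 (1.35-fold higher, adjusted p = 0.0477) was lost in 6 of 8 fits without a mouse. Among the negative regulators the call of Dgkz was lost in 6 of 8 such fits (adjusted p up to 0.175), that of Ubash3a in 5 of 8 (adjusted p up to 0.148) and that of Ptpn6 without mouse 1, 2 or 7 (adjusted p up to 0.0793), while those of Dgka and Inpp4b were kept in all 8. With mouse as a random effect in limma-voom, Nfatc1 and Dgkz lost their calls too. Of the 17 calls, 10 were kept under every alternative run.

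The single-positive gates, TSLPR+ST2- and TSLPR-ST2+, differed in 8 of 36 members, 6 higher and 2 lower in TSLPR+ST2- Treg, and of all genes tested 2.67% passed, 1.4% as higher and 1.27% as lower. The higher members include parts of the receptor and its first kinases. Cd3e had a log2 fold change of 0.40 ± 0.09 SE (1.32-fold higher, edgeR adjusted p = 0.00737), with 704 to 1059 CPM (median 807) in TSLPR+ST2- and 493 to 771 CPM (median 648) in TSLPR-ST2+ libraries. Cd3d rose 1.27-fold (adjusted p = 0.00968) and Zap70 1.31-fold (adjusted p = 0.00493). Lck (1.12-fold higher, adjusted p = 0.0260), Lat (1.18-fold higher, adjusted p = 0.0439) and Malt1 (1.53-fold higher, adjusted p = 0.0191) also passed. Prkcq (1.35-fold lower) and Dgka (1.26-fold lower) fell. The calls of Cd3d, Cd3e and Zap70 were kept under every alternative run. Over the 8 fits without a mouse, the call of Lat was kept in 1, that of Lck in 2, that of Malt1 in 3, and those of Prkcq and Dgka in 6 each. Of the wider list, 5 positive genes fell and none rose, led by Trat1 (1.54-fold lower). Of the negative genes Lax1 rose and Rasa3 fell (2.07-fold), and Trac rose 1.18-fold.

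**Figure D4:**
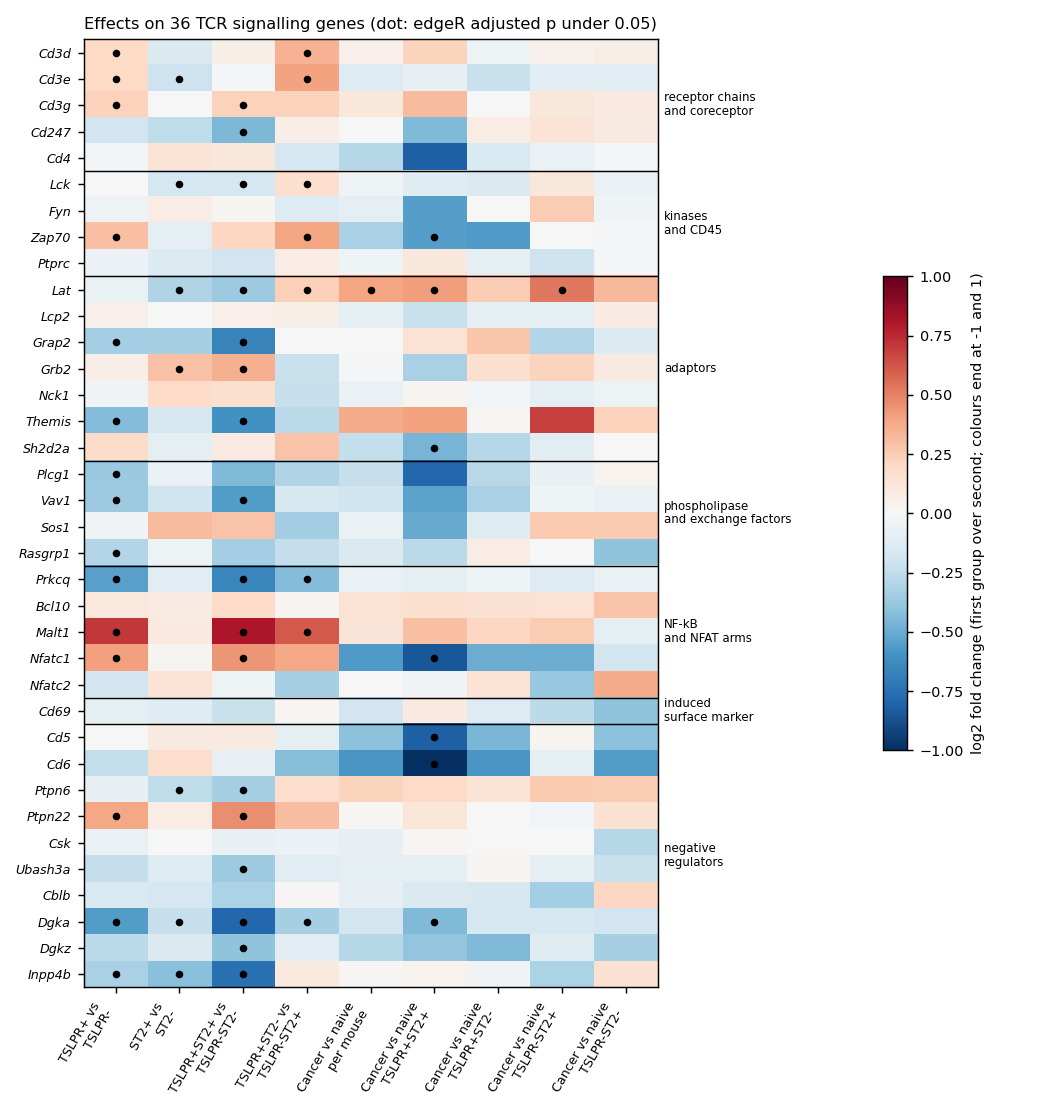
Log2 fold change of the 36 members, grouped by role, in 9 comparisons, with colour from blue (lower in the first group) to red (higher) and a dot where the edgeR adjusted p is under 0.05. Dots fill the gate comparisons (15, 7, 17 and 8 members), while among the cancer comparisons only TSLPR+ST2+ Treg holds more than 1 (7 members).

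The effect of cancer was first tested on the sum of the 4 gates of each mouse, 4 cancer mice against 4 naive mice. Lat alone of 36 members passed, and of all 15338 genes tested 1.21% passed, 0.287% as higher and 0.926% as lower. Lat, on which the signalling complex below the receptor assembles, had 720, 805, 796 and 796 CPM in cancer mice 5 to 8, against 616, 590.0, 584 and 584 CPM in naive mice 1 to 4. The groups did not overlap (log2 fold change 0.39 ± 0.05 SE, 1.31-fold higher, edgeR adjusted p = 0.0122). The call was lost without mouse 4 or 6 (adjusted p up to 0.0554) and with the mitochondrial share as a covariate (adjusted p = 0.346). Cancer libraries had 0.958% to 3.23% mitochondrial counts and naive libraries 0.616% to 1.28%. In these sums Themis and Ptpn6 were higher in every cancer mouse than in any naive mouse without passing, Themis at 75.9 to 83.3 CPM in cancer mice and 59.5 to 64.4 CPM in naive mice (adjusted p = 0.0564). Zap70, Sh2d2a, Nfatc1, Cd5, Cd6, Dgka and Dgkz were lower in every cancer mouse without passing, Cd5 at 447 to 492 CPM in cancer mice and 550.2 to 728 CPM in naive mice (adjusted p = 0.0563). Nfatc1 (259, 259.5, 191 and 272 CPM in cancer mice, against 347, 335, 430.4 and 344 CPM in naive mice) had an adjusted p of 0.0611. How many of all genes separate cancer from naive mice completely was not counted, so no conclusion is drawn from these lists. By edgeR, 10 members and 2586 of all 15338 genes had an unadjusted p under 0.05. DESeq2 called 8 members in this comparison, and of 30639 genes it called 543 higher and 786 lower.

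Within gates, Lat was higher in cancer mice in TSLPR-ST2+ Treg, with 661, 888, 766 and 748 CPM in cancer mice 5 to 8 and 532, 496, 509 and 584 CPM in naive mice 1 to 4 (log2 fold change 0.53 ± 0.09 SE, 1.44-fold higher, edgeR adjusted p = 0.00825). It was the 1 member that passed there, against 0.202% of all genes (0.0471% as higher and 0.155% as lower), and the call was lost without mouse 1 or 2 (adjusted p up to 0.0564). In TSLPR-ST2- Treg Lat had 861, 839, 864 and 826 CPM in cancer mice and 686, 690.2, 668 and 670.0 CPM in naive mice, also without overlap, but did not pass (adjusted p = 0.296). In TSLPR+ST2- Treg it had 692, 862, 830.2 and 887 CPM in cancer mice and 684, 643, 745 and 684 CPM in naive mice, which overlapped (adjusted p = 0.552). By edgeR no member passed in these 2 gates. In the TSLPR-ST2- gate 0.209% of all genes passed (0.0606% as higher and 0.148% as lower), and 5 members and 1101 of all genes had an unadjusted p under 0.05. In the TSLPR+ST2- gate 0.0471% passed (0.0269% as higher and 0.0202% as lower), and 8 members and 1100.0 of all genes had an unadjusted p under 0.05. DESeq2 called 1 member in each. Of 30794 genes it called 46 higher and 96 lower in the TSLPR-ST2- gate, and 41 higher and 55 lower in the TSLPR+ST2- gate. Of the 8 members with an unadjusted edgeR p under 0.05 in TSLPR+ST2- Treg, Zap70 came nearest, at 173, 203, 183 and 178 CPM in cancer mice and 269, 293, 256 and 272 CPM in naive mice (log2 fold change -0.56, adjusted p = 0.0530).

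In TSLPR+ST2+ Treg, 7 members passed between cancer and naive mice, 1 higher and 6 lower in cancer mice, and of all genes tested 4.16% passed, 1.66% as higher and 2.5% as lower. Cd6 (chromosome 19, 10789341 to 10830058), a receptor on T cells that damps TCR signals, had 321, 271, 346 and 553 CPM in cancer mice 5 to 8 and 676, 814, 1220.1 and 952 CPM in naive mice 1 to 4. The groups did not overlap, and the log2 fold change was -1.30 ± 0.26 SE (2.45-fold lower, edgeR adjusted p = 0.0055). Its neighbour Cd5 (chromosome 19, 10717116 to 10739002), a related receptor whose level tracks TCR signal strength in thymocytes, had 431, 404, 379.7 and 413 CPM in cancer mice and 645, 640.4, 827 and 748 CPM in naive mice (log2 fold change -0.81 ± 0.13 SE, 1.76-fold lower, adjusted p = 0.000759). Again no cancer value reached a naive value. Dgka had 567, 835, 722 and 823 CPM in cancer mice and 969, 952, 1134 and 948 CPM in naive mice (1.36-fold lower, adjusted p = 0.0157).

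Of the positive components, Zap70 fell 1.47-fold in cancer TSLPR+ST2+ Treg, with the values given above (adjusted p = 0.00633). Nfatc1 had 282, 247, 207 and 285 CPM in cancer mice and 411, 332, 627 and 471 CPM in naive mice (1.80-fold lower, adjusted p = 0.0224). Sh2d2a, an adaptor of T cells that binds LCK, had 543, 316, 429 and 404 CPM in cancer mice and 574, 596, 613 and 557 CPM in naive mice (1.38-fold lower, adjusted p = 0.0419). Lat was the member that rose, with 655, 608, 733 and 728 CPM in cancer mice and 562, 571, 439 and 469 CPM in naive mice (1.33-fold higher, adjusted p = 0.0107). None of these groups overlapped, although Sh2d2a of mouse 5 came near the naive values. Cd4 (1.76-fold lower, adjusted p = 0.0774), Plcg1 (1.73-fold lower, adjusted p = 0.0614) and Fyn (1.47-fold lower, adjusted p = 0.0562) did not pass. The median log2 fold change was -0.11 over the members, -0.12 over the positive components, -0.12 over the negative regulators and 0.05 over all genes.

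In the wider list, 1 other positive gene rose and 4 fell in cancer TSLPR+ST2+ Treg. Vav2, a relative of VAV1, fell 4.23-fold, with 4.70 to 16.5 CPM in cancer and 18.1 to 72.9 CPM in naive libraries. Akt2, a kinase of the PI3K pathway, fell 2.32-fold, while Nfkb1 rose 1.64-fold. Of 30 other negative genes 5 fell, among them Rasa3 (2.38-fold), Ptpn7 (1.73-fold), Map4k1 (1.77-fold) and Ubash3b (1.84-fold).

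Several library measures moved with status in TSLPR+ST2+ Treg. Cancer libraries held 4038718 to 5816224 counts and naive libraries 6607867 to 8839946 counts. Mitochondrial genes took 1.43% to 3.23% of counts in cancer libraries, against 0.618% to 1.24% in naive libraries, and neither measure overlapped. Foxp3 had 61.1 to 124 CPM in cancer libraries and 105 to 184 CPM in naive libraries. Macrophage and dendritic cell markers summed to 386 to 795 CPM in cancer and 1332 to 2182 CPM in naive libraries. Epithelial markers summed to 127 to 4445 CPM in cancer and 140 to 204 CPM in naive libraries. Immediate early and heat shock genes summed to 908 to 1158 CPM in cancer and 1552 to 1965 CPM in naive libraries. With the mitochondrial share as a covariate 0 of the 7 calls remained. With every library thinned to 4038718 counts 8 members passed, and without the TSLPR+ST2+ library of mouse 7, which carries the epithelial markers, 5 passed. The share of all genes was not set beside these counts. In fits without 1 mouse 3 to 9 members passed, and the calls of Cd5, Cd6 and Zap70 were kept in each. With only the 8 libraries of this gate the call of Cd5 was kept, while those of Cd6, Zap70 and the other called members were lost. That of Dgka was lost without mouse 3 or 5, that of Lat without mouse 3, 4 or 7, that of Nfatc1 in 4 of 8 fits and that of Sh2d2a in 6. The part of RNA quality and of other cells in these differences was not tested further.

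**Figure D5:**
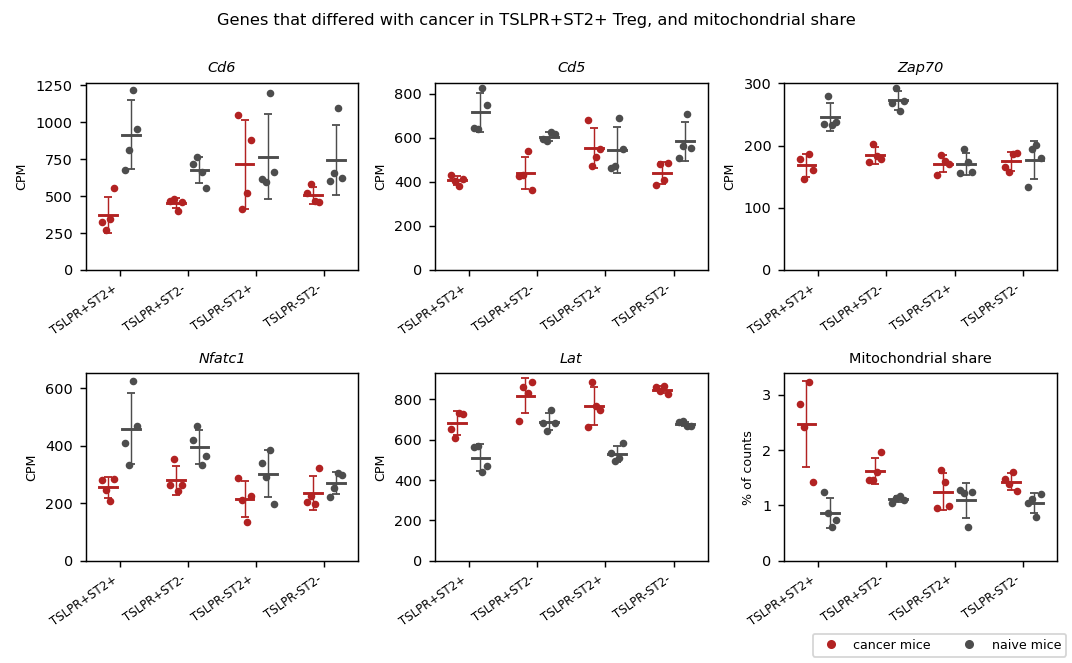
CPM of Cd6, Cd5, Zap70, Nfatc1 and Lat, and the share of counts from mitochondrial genes, in each library (points) with the mean (bar) and SD (error bar) of 4. In the TSLPR+ST2+ gate cancer values lie below naive values for Cd6, Cd5, Zap70 and Nfatc1 and above them for Lat and for the mitochondrial share (1.43% to 3.23% of counts in cancer libraries, against 0.618% to 1.24% in naive libraries).

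Whether the effect of cancer differs between gates was tested directly. For ST2+ against ST2- Treg, TSLPR+ against TSLPR- Treg and TSLPR+ST2+ against TSLPR-ST2- Treg, edgeR called 0 members, and 0% of all genes passed. At an unadjusted p under 0.05 there were 926, 1178 and 1324 genes, and among members 1, 8 and 10. The smallest p of a member was that of Zap70, whose cancer effect in TSLPR+ Treg minus that in TSLPR- Treg was -0.55 ± 0.11 SE on the log2 scale (unadjusted p = 4.24e-05, edgeR adjusted p = 0.204). DESeq2 called 1 member in that comparison, and of 30794 genes it called 27 higher and 30 lower. For Cd5 the difference between TSLPR+ and TSLPR- Treg was -0.45 (adjusted p = 0.421) and for Cd6 -0.61 (adjusted p = 0.579). The cancer effects on these genes were thus not shown to differ between TSLPR+ and TSLPR- Treg. The cancer effect in TSLPR+ST2+ Treg was not tested against that of all other gates together. The cancer effect on Lat differed by 0.19 between ST2+ and ST2- Treg (adjusted p = 0.800). Whether the effect of ST2 differs between TSLPR+ and TSLPR- Treg was tested too, with 0 of 36 members and 0% of all genes called, 1094 genes at an unadjusted p under 0.05, and no member called by DESeq2.

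The Foxp3-negative CD44low naive T cells give a single library with no replicate, so no test was made, and the intervals cover counting error only. Of 36 members 31 lay within the range of the 32 Treg libraries and 5 above it. The share of all genes outside their Treg range was not counted, so whether 5 of 36 is many is not known. The largest gap was in Themis, with 31.1 to 113 CPM (median 71.4) in Treg libraries and 265 CPM (exact Poisson 95% interval 253 to 277) in the Foxp3-negative library, 3.71 times the Treg median. Grap2 had 30.0 to 91.5 CPM in Treg libraries and 103 CPM (95.3 to 110) in the Foxp3-negative library. Dgka had 568 to 1695 CPM in Treg libraries and 2164 CPM (2129 to 2198) in the Foxp3-negative library. Lck had 1347 to 2000 CPM in Treg libraries and 2123 CPM (2089 to 2158) in the Foxp3-negative library, just above the Treg range. Cd69 had 185 to 381 CPM in Treg libraries and 387 CPM (373 to 402) in the Foxp3-negative library. The interval of Cd69 includes the highest Treg value, so it was not above the Treg range beyond counting error. The CPM values of this paragraph use plain library totals.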

How the data were processed

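RNA from 200 sorted cells per library was amplified with SMART-Seq v4, made into libraries with Nextera XT and sequenced as 58-base single reads, per the labels' protocols. The deposited values are read counts per gene, 53465 genes by 33 libraries, made with HTSeq 0.4.1, Picard 1.134, SAMtools 1.2 and FastQC 0.11.3 on build GRCm38, per the submitters' processing notes. No source used here states the aligner, which annotation release was counted, or whether counting used strand. From these counts, genes were filtered with edgeR's filterByExpr (minimum count 10, minimum total 15), scaled by TMM and tested with the quasi-likelihood F-test (edgeR 4.0.16, R 4.3.3) in a means model of 8 groups over 32 libraries (14861 genes), and on the sum of 4 gates per mouse (15338 genes). All p-values were adjusted by the Benjamini-Hochberg method over all genes tested, with a limit of 0.05. The SE of a log2 fold change was taken from the F statistic. CPM of members use TMM-scaled totals, and marker sums and the Foxp3-negative library use plain totals. Gene positions and exon lengths come from GENCODE M21 and promoter windows from RefSeq, both on GRCm38.

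A replicate is a mouse. Libraries of the 4 gates pair by animal, since each mouse gave all of them. Deviations from the group means correlated at a mean r of 0.013 over 48 pairs from the same mouse and -0.004 over 144 pairs from different mice (over genes). Pairs from the same mouse reached an r of 0.238, with 3 pairs over 0.1. Pairs from different mice reached 0.073, with 0 over 0.1, so some pairs of libraries from the same mouse did share deviations across gates. Gate comparisons without the mouse as a block are given, and fits with it are among the alternatives. The alternatives were RLE scaling, DESeq2 1.42.0, no filter on low counts, a covariate for the mitochondrial share, leaving out each mouse, leaving out the ST2+ libraries of mouse 5, thinning to 4038718 counts, the 8 libraries of 1 gate alone, and mouse as a random (limma-voom 3.58.1) or fixed effect. One more, without the TSLPR+ST2+ library of mouse 7, was chosen after seeing the data.

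The members, their roles and the wider pathway lists were chosen with earlier results of these data known, so no p is adjusted over a list alone. All members were described by role. Of the wider lists, at most 4 called genes per list and comparison were named, by smallest p, and any other is marked in the text. Some genes that this rule names are not reported here.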

Additional observations from a re-analysis of the deposited data

Results flagged for a closer look

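In groups of 4 mice, 31 of 360 sets of member values had 1 library or mouse far from the other 3, by Dixon's test at 95%, where chance gives about 1 in 20. Of the 20 at the level of single libraries, 13 belong to naive mouse 3. In its TSLPR-ST2+ library Cd4 had 762 CPM, against 246 to 305 CPM in the other mice, Cd6 1195 CPM (593 to 661), Malt1 164 CPM (82.1 to 86.5) and Cd3d a low 669 CPM (838 to 862). In its TSLPR-ST2- library Cd6 had 1099.8 CPM (601 to 659.7 in the others), Cd247 582 CPM (453 to 458), Fyn 671 CPM (435 to 459), Rasgrp1 605 CPM (421 to 448), Dgkz 468 CPM (219 to 249.9), Cd69 391 CPM (359 to 363) and Cd3g a low 814 CPM (983 to 1003). In its TSLPR+ST2+ library Dgka had 1134 CPM (948 to 969) and Nck1 a low 103 CPM (132 to 138). In the summed gates of this mouse Cd4 had 598 CPM (324 to 366), Nfatc1 430.4 CPM (335 to 347), Sh2d2a 577 CPM (533 to 536), Csk 221 CPM (181 to 188) and Dgkz 322 CPM (232 to 245). Without this mouse the members called for cancer in TSLPR+ST2+ Treg were 3, against 7 with it, and for TSLPR+ST2+ against TSLPR-ST2- Treg 14, against 17.

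The other naive sets concern mouse 2, with Zap70 at 279.7 CPM (233 to 238 in the others) and Csk at 219 CPM (176 to 182) in TSLPR+ST2+ Treg, and Cd69 at 359.6 CPM (297 to 302) in the summed gates. In cancer mice, TSLPR-ST2- Treg of mouse 6 had 2817 CPM of Ptprc (2364 to 2425) and 181 CPM of Cblb (150.2 to 155), and those of mouse 8 a low 66.5 CPM of Nfatc2 (88.9 to 93.2). TSLPR+ST2+ Treg of mouse 7 had a low 163 CPM of Vav1 (249 to 253), and those of mouse 8 had 312 CPM of Ubash3a (226 to 237). In the summed gates mouse 7 had low values of Nfatc1 at 190.5 CPM (259 to 272) and Fyn at 429.6 CPM (493 to 498), and 129 CPM of Nck1 (107 to 111). Mouse 5 had a low 720.1 CPM of Lat (796 to 805) and 483 CPM of Sh2d2a (455 to 459.6).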

How the results depend on the processing

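Counts are of members called out of 36. For cancer against naive mice in TSLPR+ST2+ Treg, edgeR called 7, and 0 with the mitochondrial share as a covariate, 1 with only the 8 libraries of the gate, 12 with DESeq2 and 3 to 9 without 1 mouse. With that covariate Cd6 turned to a log2 fold change of 0.070 (adjusted p = 0.976). The calls per mouse (1) became 0 with the covariate, 6 after thinning, 8 with DESeq2 and 0 to 1 without 1 mouse. For cancer in TSLPR-ST2+ Treg (1) there were 0 with only the 8 libraries of the gate and 0 to 1 without 1 mouse. For cancer in TSLPR+ST2- Treg (0) there was 1 after thinning, 1 with DESeq2, 1 with mouse as a replicate block in limma-voom and 0 to 1 without 1 mouse. DESeq2 called 1 for cancer in TSLPR-ST2- Treg (0) and 1 for the difference of the cancer effect between TSLPR+ and TSLPR- Treg (0). Without 1 mouse there were 4 to 7 for ST2 (7), 11 to 15 for TSLPR (15), 12 to 17 for TSLPR+ST2+ against TSLPR-ST2- Treg (17) and 3 to 8 for the single-positive gates (8). With mouse as a random and as a fixed replicate block there were 14 and 15 for TSLPR, 8 and 9 for ST2, 15 and 18 for TSLPR+ST2+ against TSLPR-ST2- Treg, and 9 and 9 for the single-positive gates, and the block changed no other count by over 1.5 times. Without naive mouse 3 the count for cancer in TSLPR+ST2+ Treg was 3. Without the ST2+ libraries of mouse 5 there were 12 for TSLPR, 7 for ST2, 14 for TSLPR+ST2+ against TSLPR-ST2- Treg, 7 for the single-positive gates and 6 for cancer in TSLPR+ST2+ Treg, and without the TSLPR+ST2+ library of mouse 7 there were 12, 6, 15, 9 and 5. Of the values of single called members under the alternatives, 788 kept their direction and call, 160 kept the direction and lost the call, and 1 reversed. Over all genes, DESeq2 called 678 higher and 632 lower for cancer in TSLPR+ST2+ Treg (edgeR 247 and 371), 543 and 786 per mouse (44 and 142), 110 and 130 in TSLPR-ST2+ Treg (7 and 23), and 41 and 55 in TSLPR+ST2- Treg (4 and 3). It called 46 and 96 in TSLPR-ST2- Treg (9 and 22). For the other alternatives the counts over all genes are not given, so nothing is concluded from them about the members as a set. Sos1, with 74 counts in its lowest library, is the member whose values depth limits most. The cause of these changes was not tested.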

Other observations

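The members together held at most 1.94% of the counts of a Treg library and 2.03% of those of the Foxp3-negative library. The lowest share, 1.32%, was that of the TSLPR+ST2+ library of cancer mouse 7, and the other 3 libraries of that group had 1.62% to 1.69%. The share was 1.72% to 1.78% in the TSLPR+ST2+ libraries of naive mice. Genes of immediate early and heat shock responses summed to 908 to 1987 CPM in Treg libraries and 2736 CPM in the Foxp3-negative library.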
